A study of Rattus norvegicus with 9 samples.

Results

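Genes of the cell cycle and of DNA replication were followed in sympathetic neurons treated with bone morphogenetic protein-7 (BMP-7), a secreted factor that makes these neurons grow dendrites. A gene was a member if the array annotation gave it a single symbol beginning with the root of a cyclin (Ccna, Ccnb, Ccnd, Ccne, Ccng, Ccnh), of a cyclin-dependent kinase (Cdk), of a Cdc gene other than the Cdc42 group, or of a replication protein (Mcm, Prim, Pola, Polb, Pold, Pole, Top, Rfc, Rpa), or if it was Pcna, Mki67, Rb1, Rrm1 or Rrm2. This gave 52 genes of the 4736 genes named on the array, read by 91 probe sets, and 26 of the 52 had several probe sets. The rule reads symbols and no expression value, although it was set with earlier results of these data known. Mki67, Rrm1, Rrm2 and any gene of the Ccna, Ccnh or Pole roots had no probe set with a single symbol here. One probe set stood for each gene, the brightest by its mean over the 9 arrays, and for the genes described the others are given where their sign against control differed.

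The cells came from superior cervical ganglia of Holtzman rat pups at embryonic day 21. All cultures grew without serum, with nerve growth factor at 100 ng/ml, and received Ara-C, a nucleoside that kills dividing cells, for 48 hr to deplete non-neuronal cells. On day 5 in culture they were left untreated (control) or received BMP-7 (50 ng/ml) during 6 hr (BMP6h) or 24 hr (BMP24h), with control cultures kept for 24 hr. RNA of pooled cultures was hybridised to 9 Affymetrix Rat Genome U34A arrays, 3 per group, from 3 independent dissections: replicate 1 of each group formed batch 1 (10 µg cRNA) and replicates 2 and 3 formed batch 2 (5 µg). Per the paper, each dissection gave 1 sample of each condition, but no label says that the replicate number marks the dissection. The paper states that RNA of every condition was isolated at the same time, on day 6 in culture. No separate control was labelled 6 hr, so both treated groups were set against the same control arrays and their 2 comparisons share them.

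The cell cycle runs on cyclin-dependent kinases, which cyclins switch on and Cdkn inhibitors hold back. Once the D- and E-type cyclins with their kinases have phosphorylated Rb1, E2F factors turn on the replication genes, whose products unwind the DNA (Mcm helicase), start new strands (primase with polymerase alpha), load the Pcna clamp (Rfc) and coat single strands (Rpa). Neurons that have left the cycle still transcribe a number of these genes, and the kinase Cdk5 with its activator Cdk5r1 is known for work in postmitotic neurons rather than in division.

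The windows below, from promoters that hold letters through which E2F acts, are shown because the replication genes are the classic E2F targets. RefSeq (rat build GRCr8) gave the 300 bases from 250 before to 50 after the start for 44 of the 52 members. The word TTCCCGC was sought on both strands, as were the word TTCGCGC, the word TTGCCGC and the word TTGGCGC, and matches of the second and the last can overlap on opposite strands. At least 1 of them lay in 17 of 44 member promoters (38.6%), against 10.0% of all 27457 promoters. The word CCAAT was in 24 of 44 (54.5%), against 37.7%, and TTTGAA, the core of the CHR element of genes of mitosis, in 6 of 44 (13.6%), against 18.1%. These counts describe letters only and no binding was measured. In each window, of 40 bases upstream of the start and written 5′ to 3′ on the strand of the gene, capitals mark the E2F word or its reverse complement.
Cdk1, chr20:19265096-19265135, plus strand: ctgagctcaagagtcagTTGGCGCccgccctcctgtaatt
Mcm5, chr19:13488584-13488623, plus strand: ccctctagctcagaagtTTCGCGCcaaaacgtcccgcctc
Mcm6, chr13:42404468-42404507, minus strand: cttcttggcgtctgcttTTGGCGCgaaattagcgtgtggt
Mcm7, chr12:22163207-22163246, minus strand: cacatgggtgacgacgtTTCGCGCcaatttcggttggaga
Pola1, chrX:62342505-62342544, minus strand: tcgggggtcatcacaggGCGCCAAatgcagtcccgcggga
Rfc4, chr11:91254233-91254272, plus strand: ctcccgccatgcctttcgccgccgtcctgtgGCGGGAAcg

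The markers of sympathetic neurons were present: Th, tyrosine hydroxylase, stood at 13.49 ± 0.01 and Dbh, dopamine beta-hydroxylase, at 11.94 ± 0.04 in control (log2, SD, n = 3). The 11 of 14 neuron genes measured averaged 11.19 to 11.25 on control, 11.24 to 11.35 on BMP6h and 11.02 to 11.31 on BMP24h arrays. At 24 hr 8 of the 11 had lower values, and 0 passed the thresholds of the next sentence at either time. Of the marker lists for other cells, the mean log2 level of the fibroblast and matrix genes (15 of 16 listed were measured) was 9.49 to 9.70 on control, 9.50 to 9.57 on BMP6h and 9.19 to 9.40 on BMP24h arrays, and 2 of the 15 at 6 hr and 4, all lower, at 24 hr passed the thresholds of the Methods (unadjusted p under 0.05 and fold of at least 1.2), which 1.79% of all genes did at 6 hr and 2.05% did as lower at 24 hr. The 10 of 13 satellite glia and Schwann cell genes measured averaged 7.28 to 7.35, 7.22 to 7.33 and 7.17 to 7.44, with 0 past those thresholds at either time. The 7 of 10 endothelial and mural genes averaged 7.19 to 7.46, 7.07 to 7.21 and 7.08 to 7.17, the BMP24h arrays all below control, with 1 past those thresholds at each time. The 9 of 11 macrophage and blood cell genes averaged 6.84 to 6.94, 6.92 to 6.93 and 6.89 to 7.00, with 0 past them. The part of such cells in the values below was not tested. In RNA from whole cultures, fewer cells of a type and less RNA per cell cannot be told apart. Among the arrays, BMP6h replicate 2 differed by over 1 log2 unit from the average of its 2 fellow replicates on 9.99% of probe sets, BMP6h replicate 3 on 4.21% and control replicate 3 on 3.84%, against 1.09% or less on the other 6. For 27 of the 52 members (51.9%; 43.4% of all genes) BMP6h replicate 2 was the array farthest from the median of the 9, and for 9 (17.3%; 20.3% of all genes) it was control replicate 3. By this measure BMP24h replicate 2 was farthest for 7 members (13.5%, against 15.6% of all genes). BMP6h replicate 3 was farthest for 1 (1.92%, against 2.87% of all genes). BMP6h replicate 2 and control replicate 3, with the highest shares of all genes, are called the doubtful arrays below. For a number of named members, differences of the brightest probe sets that rest on 1 of these 2 arrays are given with and without it. Differences given without such a check may also rest on 1 of them.

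**Figure D1:**
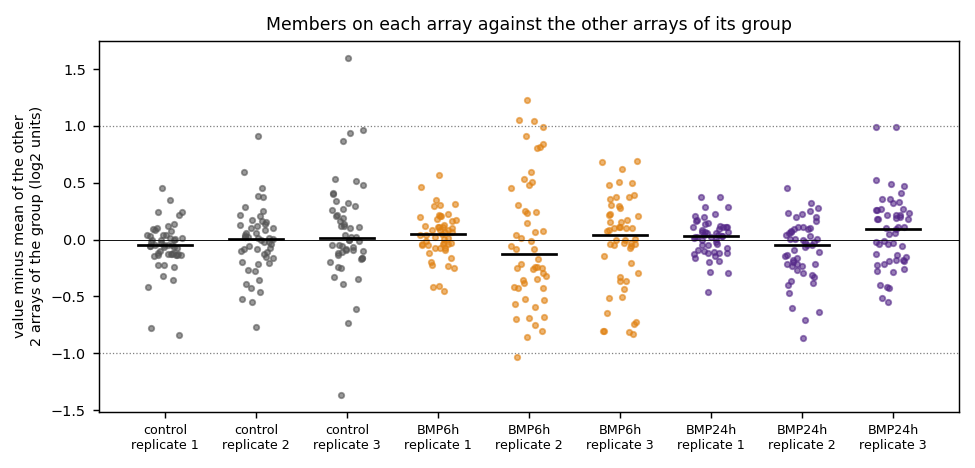
Each point is 1 of the 52 members on 1 array, plotted as its value minus the average of its 2 fellow replicates (log2 units). Black bars are medians and dotted lines lie at 1 and -1. Members scattered most widely on BMP6h replicate 2 (4 members past the dotted lines), while the 2 members past them on control replicate 3 reached farther.

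As a group, these genes gave no difference that passed the adjusted test in limma at either time. At 6 hr, 0 of 52 members had an adjusted p under 0.05 (Benjamini-Hochberg over all 8740 probe sets; lowest 0.887), against 0.0422% of all genes, and 1 of 52 had an unadjusted p under 0.05. At 24 hr, 0 of 52 passed (lowest adjusted p 1; 0.211% of all genes), with 0 at an unadjusted p under 0.05, and between BMP24h and BMP6h 0 of 52 passed (lowest adjusted p 0.939; 0% of all genes), again with 0 at the unadjusted level. An ordinary two-way analysis of variance without moderation also gave 0 adjusted calls in the 3 comparisons. By the thresholds of the Methods, 1 member passed at 6 hr (1.92%; 1.79% of all genes, 0.908% counted as higher), 0 at 24 hr (3.82% of all genes) and 0 between the treated groups (3.21% of all genes).

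The differences were close in centre and in size to those of the array as a whole. Their median size without regard to sign was 0.13 at 6 hr (all genes 0.14), 0.09 at 24 hr (all genes 0.11) and 0.16 between the treated groups (all genes 0.14). The median log2 difference of the members was -0.02 at 6 hr (all genes -0.03), 0.01 at 24 hr (all genes 0.01) and 0.03 between the treated groups (all genes 0.03). Members with higher values numbered 24 at 6 hr and 28 at 24 hr, and members with lower values 28 and 24. Of all 4736 genes, 2022 were higher and 2714 lower at 6 hr, and 2474 higher and 2262 lower at 24 hr. The groups did not overlap for 5 members at 6 hr (9.62%; 10.5% of all genes), for 4 at 24 hr (7.69%; 13.6%) and for 3 between the treated groups (5.77%; 10.4%). At 6 hr Cdk17, Top1 and Cdc25b lay above control (3 members; 3.12% of all genes) and Rfc4 and Cdkn1a below it (2 members; 7.37% of all genes). Cdc25b differed by 0.14 at 6 hr, while both its other probe sets gave lower values, -0.04 and -0.05. At 24 hr Ccnd2, Cdk13, Cdkn1b and Prim2 lay below control (4 members, against 7.69% of all genes) and 0 lay above it (5.95% of all genes). Some of these gaps were very small. The nearest control and BMP24h arrays both read 6.33 for Cdkn1b, and 6.91 and 6.89 for Cdk13, which differed by -0.09. Between the treated groups, BMP24h was above BMP6h for Ccnd1 and Mcm5 (6.12% of all genes) and below it for Pola1 (4.27% of all genes). The members' differences in that comparison ran from -0.58 (Cdk18) to 0.33 (Cdc123). BMP6h replicate 2 was the highest of all arrays for Cdk18 and the lowest for Cdc123. Top1, Cdc25b, Cdk13 and Pola1, like Cdc37 below, are named after their values were seen.

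**Figure D2:**
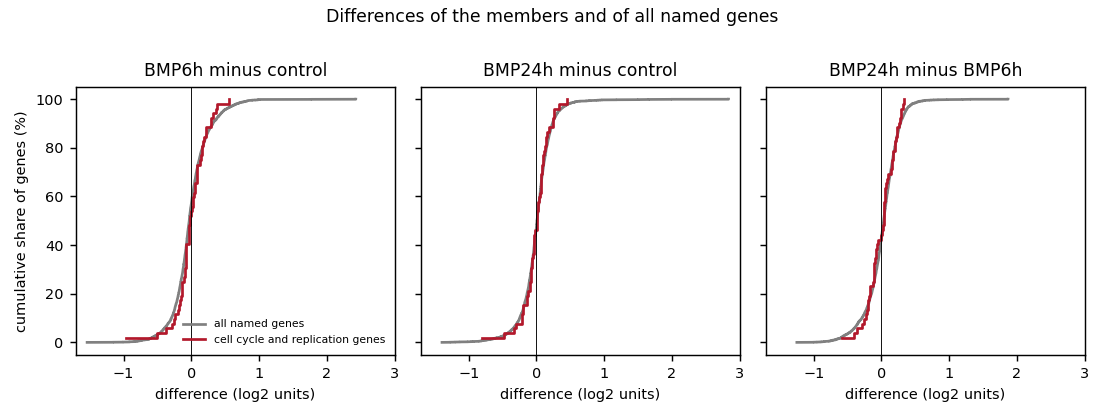
Cumulative share of genes (%) against the difference in log2 units for the 52 cell cycle and replication genes (red) and all 4736 named genes (grey), in each of the 3 comparisons. The red steps follow the grey curve; the members' differences at 6 hr ran from -0.97 to 0.55 and at 24 hr from -0.80 to 0.45.

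Most members had intervals that left out a change of 2-fold or more in the array value, as did most genes on the array. The probe sets of 23 members had means below 6.8, the median of all probe sets tested. Where such a low value is background, a narrow interval sets no limit on change of the transcript. The 95% interval of the difference lay within 2-fold in both directions for 46 of 52 at 6 hr (88.5%, against 84.8% of all genes). At 24 hr it did so for 48 of 52 (92.3%, against 88.3% of all genes). It lay within 1.5-fold for 28 at 6 hr (53.8%, against 53.8% of all genes) and 26 at 24 hr (50%, against 56.1%). For the other 24 and 26 members the interval did not leave out a change of 1.5-fold. The median range over the 9 arrays was 0.70 log2 units, with 16 members over 1 and 16 under 0.5.

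**Figure D3:**
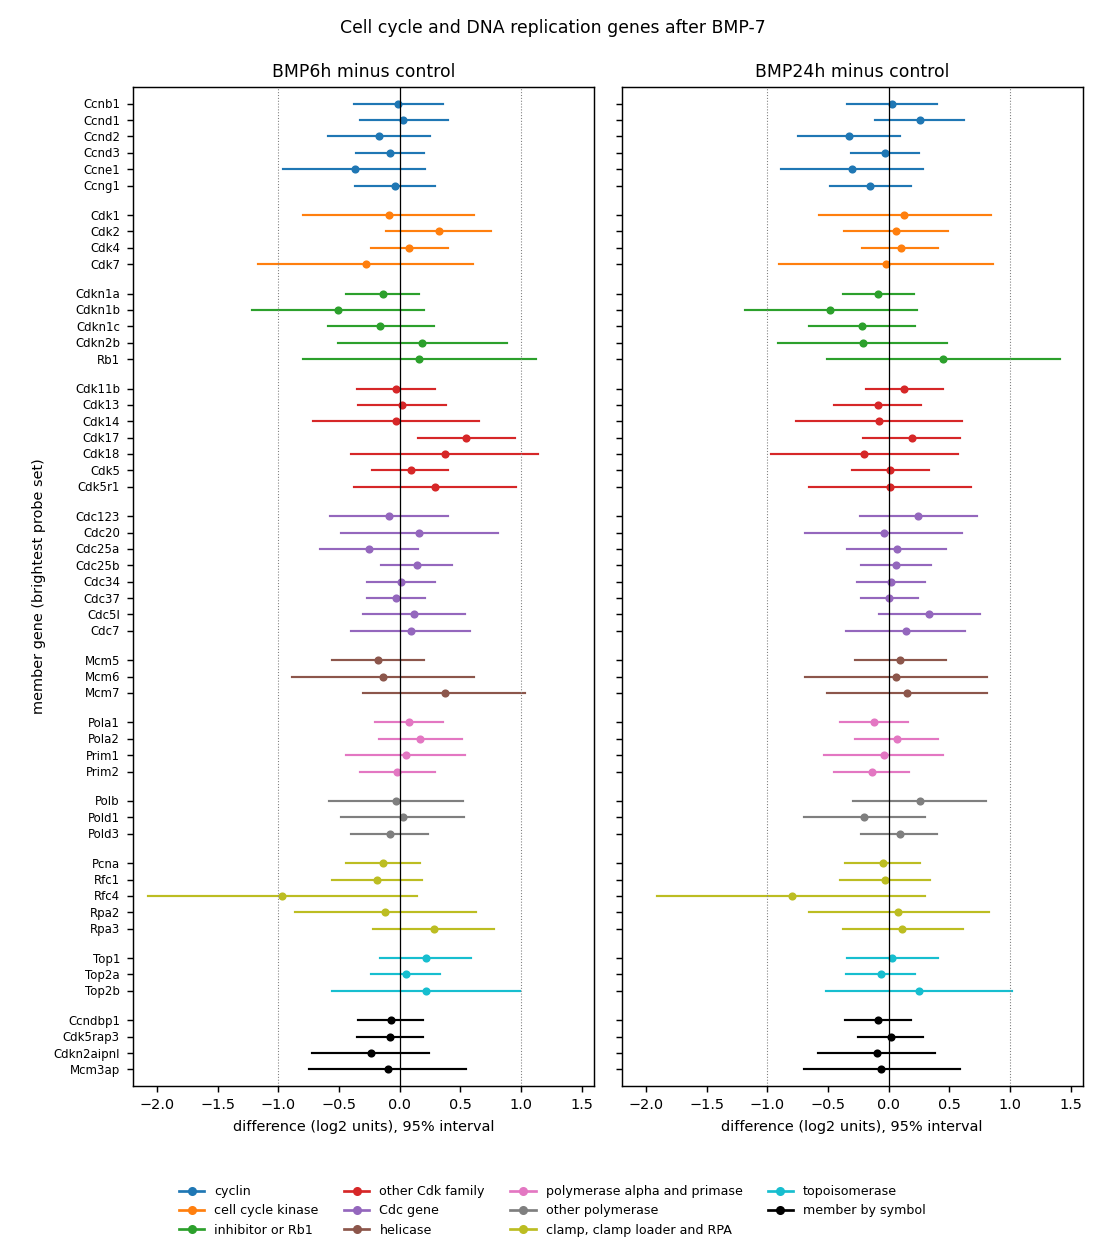
Log2 difference from control at 6 hr (left) and 24 hr (right) for every member's brightest probe set, with its 95% interval from limma, grouped and coloured by role; dotted lines mark a 2-fold change. Cdk17 at 6 hr was the 1 member whose interval excluded 0, and Rfc4 had the widest intervals, from -2.07 to 0.14 at 6 hr.

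Among the cyclins, Ccnd1 and Ccnd2, D-type cyclins that activate Cdk4, gave values of opposite sign at 24 hr. Ccnd1 read 9.12, 8.97 and 9.37 in control, 9.27, 8.96 and 9.34 at 6 hr and 9.36, 9.40 and 9.47 at 24 hr. The 24 hr arrays lay above the 6 hr arrays and overlapped control, with a difference of 0.26 ± 0.16 (SE; limma adjusted p = 1). All 5 probe sets of Ccnd1 had a higher value at 24 hr, by 0.05 to 0.41, while at 6 hr they ran from -0.25 to 0.53, and with BMP6h replicate 2 and control replicate 3 left out Ccnd1 passed the thresholds of the Methods at 24 hr (0.36). Ccnd2 read 7.33, 7.38 and 7.57 in control and 7.11, 6.85 and 7.32 at 24 hr, a difference of -0.33 ± 0.18 (adjusted p = 1), while its second probe set gave 0.18. At 6 hr the 2 gave -0.17 (-0.01 without BMP6h replicate 2) and 0.03. Ccnd3 (-0.08 at 6 hr and -0.03 at 24 hr) and the mitotic cyclin Ccnb1 (-0.01 and 0.03) were near 0. Ccne1, the E-type partner of Cdk2, read 7.77, 7.62 and 8.56 in control, and its difference of -0.37 at 6 hr became -0.06 without control replicate 3. At 24 hr it gave -0.30, which became 0.01 without that array. The second Ccne1 probe set gave -0.07 at 6 hr and 0.10 at 24 hr.

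The kinases that drive division showed small differences with wide overlap. Cdk1, the kinase of mitosis, read 4.82, 5.20 and 4.40 in control, 4.80, 4.21 and 5.13 at 6 hr and 4.84, 4.68 and 5.29 at 24 hr, so all 3 groups overlapped. Its differences were -0.09 ± 0.30 and 0.13 ± 0.30. They became 0.18 at 6 hr without BMP6h replicate 2 and -0.09 at 24 hr without control replicate 3. Cdk4 differed by 0.08 ± 0.14 and 0.10 ± 0.14. Cdk2, which acts at the start of S phase, gave 0.32 ± 0.19 at 6 hr, where BMP6h replicate 2 was high at 7.35 beside 6.80 and 6.70, and 0.10 without that array. The second Cdk2 probe set gave -0.14 at 6 hr and 0.17 at 24 hr. Cdk7, which activates the other Cdks and takes part in transcription, was low on that array, 5.35 beside 6.26 and 6.49, and gave -0.28 ± 0.38, or 0.09 without it. At 24 hr Cdk2 gave 0.06 and Cdk7 -0.02.

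Among the Cdk inhibitors and Rb1, no member passed a threshold. The lowest differences (Cdkn1b) and the highest at 24 hr (Rb1) rested largely on control replicate 3. The highest at 6 hr (Cdkn2b) rested on BMP6h replicate 2. Cdkn1b (p27Kip1), which holds Cdk2 inactive, read 6.40, 6.33 and 7.30 in control, 6.37, 5.72 and 6.42 at 6 hr and 6.28, 6.00 and 6.33 at 24 hr. Control was high on replicate 3, and the differences of -0.51 ± 0.30 and -0.48 ± 0.30 became -0.17 and -0.14 without it, and at 6 hr -0.26 without BMP6h replicate 2. Cdkn1a (p21) read 8.78, 8.76 and 8.79 in control and 8.71, 8.46 and 8.74 at 6 hr, all below control, a difference of -0.14 ± 0.13 that was -0.04 without BMP6h replicate 2, and its BMP24h arrays overlapped control. Cdkn1c gave -0.16 and -0.22, or -0.01 and -0.07 without control replicate 3. Cdkn2b gave 0.18 and -0.21 (-0.12 at 24 hr without control replicate 3), with BMP6h replicate 2 high at 7.57 beside 6.72 and 6.33 and its 6 hr difference at -0.19 without that array. Rb1, the brake that cyclin-Cdk complexes release, was low on control replicate 3 (3.99 beside 5.21 and 5.51), and gave 0.16 ± 0.41 and 0.45 ± 0.41, or -0.33 and -0.05 without it. The 6 hr difference of Rb1 was 0.41 without BMP6h replicate 2.

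In the other Cdk family members, Cdk17, a PCTAIRE kinase of terminally differentiated cells, was the 1 member past the thresholds of the Methods. It read 7.46, 7.37 and 7.07 in control, 7.72, 8.01 and 7.83 at 6 hr and 7.46, 7.28 and 7.73 at 24 hr. All BMP6h arrays lay above all control arrays, and BMP24h overlapped both. The difference at 6 hr was 0.55 ± 0.17 log2 units (1.46-fold, limma adjusted p = 0.887), and at 24 hr it was 0.19 ± 0.17 (0.06 without control replicate 3). The second probe set gave 0.54 at 6 hr and 0.06 at 24 hr. The call held with any 1 array left out (0.42 to 0.67) and was lost with both doubtful arrays left out, at 0.36. BMP24h against BMP6h was -0.36 ± 0.17 (adjusted p = 0.939). Cdk5 gave 0.09 ± 0.14 and 0.01 ± 0.14. Its activator Cdk5r1 gave 0.29 ± 0.29 at 6 hr, with 8.30 on BMP6h replicate 2 beside 7.32 and 7.17, and -0.09 without that array. Cdk18, another PCTAIRE kinase, was also highest there (7.86), and 0.37 ± 0.33 became -0.07 without it. At 24 hr Cdk5r1 gave 0.01 and Cdk18 -0.20.

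Several Cdc genes are named for yeast division mutants but act elsewhere. Cdc37, a chaperone partner of kinases, was the steadiest member, with all 9 arrays between 11.48 and 11.58. Its difference at 6 hr was -0.03, while its second probe set gave 0.14. Cdc25a, a phosphatase that activates Cdk2, gave -0.25 ± 0.17 at 6 hr and 0.07 ± 0.17 at 24 hr. BMP6h replicate 2 was low for it, 5.89 beside 6.39 and 6.44, and the 6 hr difference was -0.06 without that array. Cdc5l, a splicing factor, gave 0.12 and 0.33 and Cdc123, a factor of translation initiation, -0.09 and 0.24 (0.10 at 24 hr without control replicate 3), none past the test. The 4 members whose symbols carry the name of a partner (Ccndbp1, Cdk5rap3, Cdkn2aipnl and Mcm3ap) had differences from -0.24 to -0.07 at 6 hr and from -0.10 to 0.02 at 24 hr.

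Among the replication genes no member passed a threshold. Mcm5 gave -0.18 and 0.09, with BMP6h replicate 2 low at 4.63 beside 4.96 and 5.16 and the 6 hr difference at -0.03 without it. Mcm7 gave 0.37 and 0.15, with BMP6h replicate 2 high at 8.20 beside 7.36 and 7.42 (0.07 at 6 hr without that array, and 0.10 and -0.11 without control replicate 3). Pcna, the sliding clamp, read 8.98, 9.04 and 9.15 in control, 8.97, 8.81 and 8.99 at 6 hr and 9.04, 8.83 and 9.16 at 24 hr, differences of -0.14 ± 0.13 and -0.05 ± 0.13 with 95% intervals of -0.44 to 0.17 and -0.36 to 0.26. Prim1, the catalytic subunit of primase, gave 0.05 and -0.04, and its second probe set -0.15 and 0.11. Polb, the polymerase of base excision repair, gave -0.03 and 0.26, while both other probe sets were lower at 6 hr (-0.49 and -0.36) and at 24 hr (-0.19 and -0.25).

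Rfc4, a subunit of the clamp loader, had the largest differences from control of the 52 members at both times. It read 6.73, 6.78 and 8.36 in control, 6.63, 5.75 and 6.59 at 6 hr and 6.74, 6.06 and 6.66 at 24 hr, and both other probe sets were highest on control replicate 3 as well (7.28 and 7.23). The differences were -0.97 ± 0.47 (adjusted p = 0.887) and -0.80 ± 0.47. Without control replicate 3 they were -0.38 and -0.22, without both doubtful arrays -0.15 and -0.25, and without control replicate 1 they were -1.38 and -1.22, past the thresholds of the Methods.

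Top2a, which untangles replicated DNA and marks dividing cells, read 6.67, 6.82 and 6.65 in control, 6.83, 6.72 and 6.73 at 6 hr and 6.62, 6.80 and 6.53 at 24 hr. Its differences were 0.05 ± 0.12 and -0.06 ± 0.12. Both dimmer probe sets were lower at 6 hr (-0.33 and -0.54) and at 24 hr (-0.18 and -0.48), the last with control replicate 3 at 6.40 beside 5.48 and 5.55. Top2b, the form of non-dividing cells such as neurons, gave 0.22 ± 0.33 and 0.25 ± 0.33. Its 6 hr difference was 0.51 without BMP6h replicate 2, 0.07 without BMP6h replicate 1 and 0.03 without BMP6h replicate 3. The 24 hr difference was -0.11 without BMP24h replicate 3, which read 5.78 beside 4.93 and 4.65, and 0.51 without BMP24h replicate 2. Among the 26 genes with several probe sets, the sign differed between them for 9 at 6 hr, 6 at 24 hr and 13 between the treated groups.

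For Prim2, the regulatory subunit of primase, a call depended on the estimate of variance. Its brighter probe set read 6.59, 6.72 and 6.61 in control, 6.66, 6.78 and 6.42 at 6 hr and 6.51, 6.57 and 6.42 at 24 hr, all 24 hr arrays below control, a difference of -0.14 ± 0.13. Its dimmer probe set read 5.26, 5.26 and 5.27 in control, 5.31, 5.32 and 5.32 at 6 hr and 5.34, 5.32 and 5.33 at 24 hr, so the treated arrays lay above control by 1.04-fold and 1.05-fold. The ordinary standard error of these differences was 0.00664 log2 units and limma's moderated one 0.0995, and the adjusted p of the ordinary contrasts was 0.533 at 6 hr and 0.134 at 24 hr. By the ordinary F-test across the 3 conditions at p under 0.005, 1 of 91 member probe sets passed (1.1%; 0.915% of all), and by the moderated one 0 (0.824% of all).

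**Figure D4:**
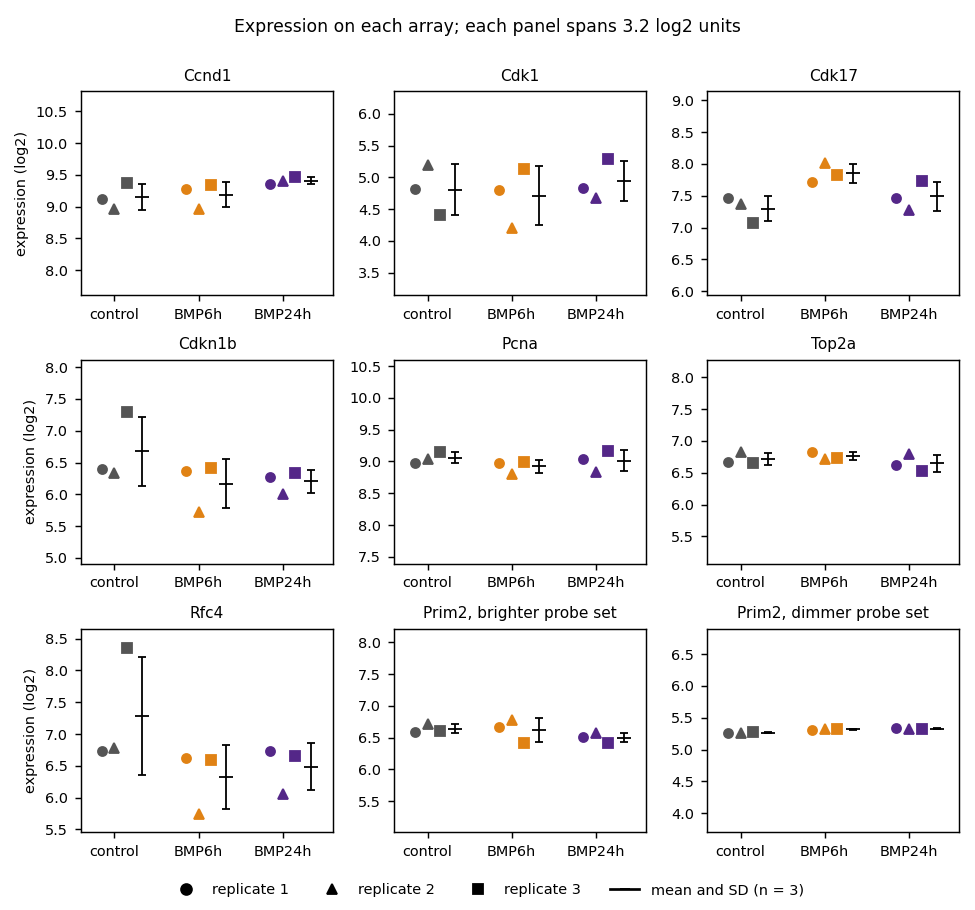
Expression (log2) on each array for 8 members, with Prim2 shown by both probe sets; each panel spans 3.2 log2 units, symbols mark the replicates and bars the mean and SD (n = 3). BMP6h stands above control for Cdk17, control replicate 3 stands high for Rfc4 (8.36) and Cdkn1b (7.30), and the dimmer Prim2 probe set hardly varies.

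A second list of 111 other cell cycle and replication genes gave 38 measured genes. None passed the adjusted test in limma in any comparison, and 1 at 6 hr (2.63%; 1.79% of all genes), 2 at 24 hr (5.26%; 3.82%) and 0 between the treated groups (3.21% of all genes) passed the thresholds of the Methods, the same 1, 2 and 0 having an unadjusted p under 0.05. Gadd45a, a stress-induced gene that slows the cycle and aids repair, read 8.90, 8.94 and 9.25 in control, 8.64, 8.27 and 8.63 at 6 hr and 8.57, 8.41 and 8.71 at 24 hr. All treated arrays lay below all control arrays (7.37% of all genes at 6 hr and 7.69% at 24 hr). The differences were -0.52 and -0.47 (limma adjusted p = 0.887 and 1), and all 4 probe sets were lower at both times. The highest control array and the lowest BMP6h array of Gadd45a were the 2 doubtful arrays, and its differences without them are not given. Nap1l1, a histone chaperone, read 10.0, 9.81 and 9.87 in control and 9.53, 9.47 and 9.70 at 24 hr, a difference of -0.32 (limma adjusted p = 1).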

How the data were processed

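The 9 arrays carried 8799 probe sets; the 59 control probe sets were left out and 8740 were tested. Per the labels and the study's methods, the deposited log2 values came from RMA run by the authors in Partek Genomics Suite, which then also removed the batch effect. The means of the 2 batches differed by at most 6.7e-05 log2 units. The file held no detection calls, so a low value may be background, and precision rests on 3 arrays a group. Probe sets took symbols from the platform annotation (7006 name 1 gene, 308 several, 1426 none). limma 3.58.1 in R 4.3.3 was fitted with 1 term for treatment and 1 for array batch, leaving 5 residual degrees of freedom, with Benjamini-Hochberg adjustment over all probe sets. The Methods' thresholds were an unadjusted p under 0.05 and a fold of at least 1.2. No pair of arrays held identical values. The procedure was tested on simulated data. Named genes were those past a threshold, the 5 highest and 5 lowest log2 differences in each comparison, and preset cell cycle genes. Members and lists were chosen with earlier results of these data known. Alternatives were another test, batch, filter, scaling, prior variance, array weights (gene-by-gene method), probe set rule, fold minimum and omission of each array; omission of both doubtful arrays, and the ordinary F-test, were added after the values were seen.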

Additional observations from a re-analysis of the deposited data

How the results depend on the processing

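The adjusted test gave 0 members in every comparison under each setting run. The count of members past the thresholds of the Methods moved more. The share of all genes past them under each setting is not given, so these counts cannot be set against the whole array. At 6 hr (1 member) it was 3 with the replicate block in place of the batch, 3 with array weights, 0 with a fold minimum of 1.5, 0 without both doubtful arrays and 1 to 2 with 1 array left out, 2 without control replicate 1. At 24 hr (0 members) it was 3 with the replicate block, 4 with array weights, 1 when all probe sets of a gene were averaged (Ccnd1), 1 without both doubtful arrays (Ccnd1) and 0 to 1 with 1 array left out (Rfc4 without control replicate 1, Cdc5l without BMP24h replicate 2). Between the treated groups (0 members) it was 1 without the batch term (Cdk17), 2 with array weights (Cdk17 and Mcm6), 1 without both doubtful arrays (Mcm6) and 0 to 4 with 1 array left out, 4 without BMP6h replicate 3 and 1 without BMP24h replicate 3. The causes were not tested. Replicate numbers were not shown to pair the samples. In batch 2 the deviations correlated at 0.05 (control and BMP6h), 0.02 (control and BMP24h) and 0.4 (BMP6h and BMP24h). Each of these pairs includes BMP6h replicate 2 or control replicate 3, so the correlations cannot settle the pairing. With the block Cdk17, Cdkn1b and Rfc4 passed at 6 hr and Ccnd2, Cdkn1b and Rfc4 at 24 hr. Of 1845 values of the 30 named genes under the settings other than the fold minimum, 1 lost and 20 gained a call, 11 uncalled ones moved by more than the spread between replicates, and no called value changed sign, although uncalled ones did. Quantile normalization and median centring changed no call of a member. The dim filter left 29 members.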
